A study of Mus musculus with 12 samples.

Results

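The 34 genes described here encode actin itself and the proteins that store its monomers, start, cap, cut, bundle and pull on its filaments, and fasten them to the plasma membrane. They were chosen by name for these roles with earlier results of these data known. Their counts set beside the shares of all genes are therefore descriptions. All 34 have a row among the 12885 genes of the table. RNA was measured in naive CD8+ T cells, sorted from spleen as CD62L-high cells with little or no CD44, from 6-week-old C57Bl/6 mice that the labels give as female. Wild-type (WT) mice were compared with mice homozygous for Ikaros-Zn4-/- (Zn4), a mutation of the lymphocyte zinc finger protein Ikaros. Cells of each genotype were lysed directly (0 h), or after 12 h or 24 h on plate-bound antibodies to CD3 and CD28, which engage the T cell receptor complex and a costimulatory receptor. Each of the 6 groups holds 2 libraries. No other agent and no Cre or transgene is named, so the 0 h cells of the mutant already carried the mutation. Time in culture and stimulation cannot be told apart, since no cells were cultured without antibody. The labels do not say whether replicates came from separate animals, so the p-values measure only the spread between these libraries, which may be technical. Values per gene do not show which zinc fingers an Ikaros transcript encodes, so they give no check of the genotype.

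Actin monomers add to filaments mainly at the barbed end, and a pool of monomers is held ready by thymosins and profilin. The Arp2/3 complex, switched on by proteins of the WASP family, starts new branches, capping protein stops growth, and cofilin with its partners takes old filaments apart. In a T cell that meets a stimulating surface this machinery drives spreading and builds the ring of actin around the contact, while ezrin, moesin and talin link the cortex to membrane proteins and integrins. Rac and Cdc42, switched on by DOCK proteins, signal to the WASP and WAVE branches of this system.

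The libraries held 24263907 to 33389808 reads, and every one of the 34 genes was tested. The 5 CD8 T cell markers (Cd3d, Cd3e, Cd3g, Cd8a, Cd8b1) summed to 1047 to 1210 RPKM (reads scaled by gene length and library size) in the WT libraries. In Zn4 the same sum was 1118 to 1159 RPKM at 0 h, 794 to 814 at 12 h and 677 to 825 at 24 h. Of 30 markers of other cell types, 6 have a row, and the highest of their values was 6.62 RPKM, for the B cell gene Cd79b in WT at 24 h. Although all samples are labelled female, RNA of 4 Y-linked genes was present at 12 h, at a summed 38.9 RPKM in replicate 1 of WT and 43.4 and 20.97 RPKM in replicates 1 and 2 of Zn4, and at no more than 0.0209 in any other library. In Zn4 12 h replicate 1 Xist was at 0.0258 RPKM and in WT 12 h replicate 1 at 0.00230, while Zn4 12 h replicate 2 had both Xist, at 24.3 RPKM, and Y-linked RNA. The sex of the cells therefore differed among the 12 h libraries. Of the 34 genes, Tmsb4x, Was, Flna and Msn lie on the X chromosome. The genotype difference at 12 h is also given within replicate 1, where both genotypes had Y-linked RNA and almost no Xist. Changes of Zn4 from 0 h to 12 h have no such value, since both Zn4 libraries of 12 h and none of 0 h had Y-linked RNA, and are also given with the Y-linked level as a covariate. Within groups that level varied mainly between the WT 12 h libraries, so the covariate rests mostly on that pair. A call could end with it at a nearly unchanged change (Hcls1, Zn4 from 12 h to 24 h, 0.61 and 0.59) or a smaller one (Cap1, 0.31 and 0.17). A call that ended with it is therefore not shown to reflect sex.

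Many actin genes are known targets of serum response factor (SRF), which binds the CArG box and whose partner Mkl1 senses free actin monomers. The promoter windows of RefSeq (GRCm38.p6, 250 bases before to 50 bases after the gene start) were therefore searched for a perfect CArG box, a 10-base motif of the pattern known by that name that reads as the same pattern on both strands. Windows were found for 30 of the 34 genes (not for Actb, Cotl1, Twf2 and Rac2), and 3 of the 30 (10%) held a box. Among all listed genes with a window, 120 of 8157 (1.47%) held one. The 3 stretches are shown 5′ to 3′ on the gene's strand because they are the ones among these promoters with the motif, whose bases are in capitals. A match describes the letters in the window and is not evidence of binding.
Arpc4, chr6:113377863-113377937, + strand, box from 250 bases before the start: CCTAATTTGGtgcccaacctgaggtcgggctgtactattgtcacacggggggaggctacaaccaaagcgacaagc
Cnn2, chr10:79988504-79988578, + strand, box from 56 bases before the start: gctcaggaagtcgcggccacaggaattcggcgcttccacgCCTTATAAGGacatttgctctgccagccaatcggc
Actg1, chr11:120348551-120348625, - strand, box from 90 bases before the start: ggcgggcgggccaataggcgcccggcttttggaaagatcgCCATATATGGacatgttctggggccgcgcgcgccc
These genes did not move alike. Arpc4 rose with stimulation in both genotypes, and Cnn2 fell at 12 h in Zn4 and rose in WT at 24 h against 0 h. Actg1 was low throughout, at 0.856 to 3.01 RPKM, and its changes are given below.

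As a group these were abundant transcripts. The median over the 34 genes was 70.7 RPKM in WT and 67.8 RPKM in Zn4 at 0 h, against 6.04 and 6.05 RPKM for the 12726 genes tested. Tmsb4x, which encodes the monomer-holding thymosin beta-4, was the highest at 0 h in both genotypes, and Actb, the gene of beta-actin, was the highest at 12 h and 24 h in both. In WT, Actb moved from rank 52 of all genes by level at 0 h to rank 10 at 12 h and rank 6 at 24 h. In Zn4 it ranked 77, 23 and 10.
The 34 genes took 1.28% and 1.37% of all reads in the WT libraries at 0 h, 1.93% and 2.06% at 12 h, and 2.30% and 2.29% at 24 h. In Zn4 they took 1.17% and 1.301% at 0 h, 1.19% and 1.26% at 12 h, and 1.74% and 1.93% at 24 h. The genotypes overlapped at 0 h, and at 12 h and 24 h both Zn4 libraries lay below both WT libraries. In bulk RNA, fewer cells of a type and less RNA per cell cannot be told apart.

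**Figure D1:**
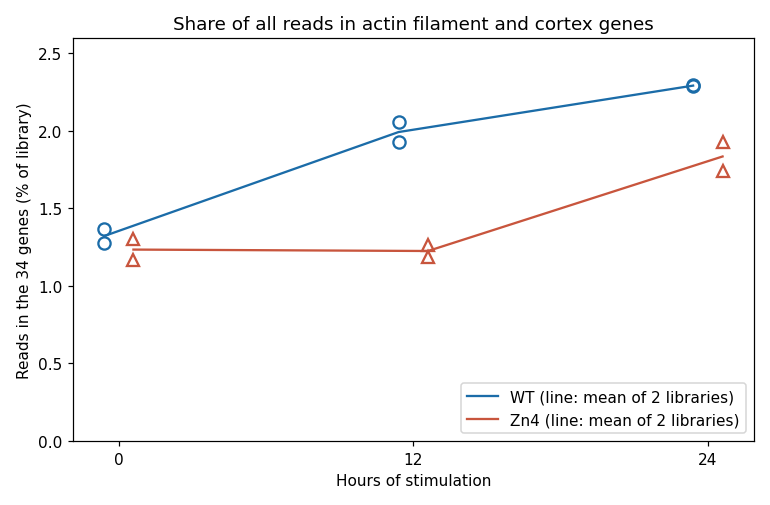
Share of all library reads that fell in the 34 actin filament and cortex genes (y axis, percent, from 0) against hours of stimulation (x axis). Points are libraries, circles for WT and triangles for Zn4, and lines join the means of 2 libraries. The WT share was 1.93% and 2.06% at 12 h, whereas the Zn4 share was 1.19% and 1.26%, close to its values at 0 h.

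**Figure D2:**
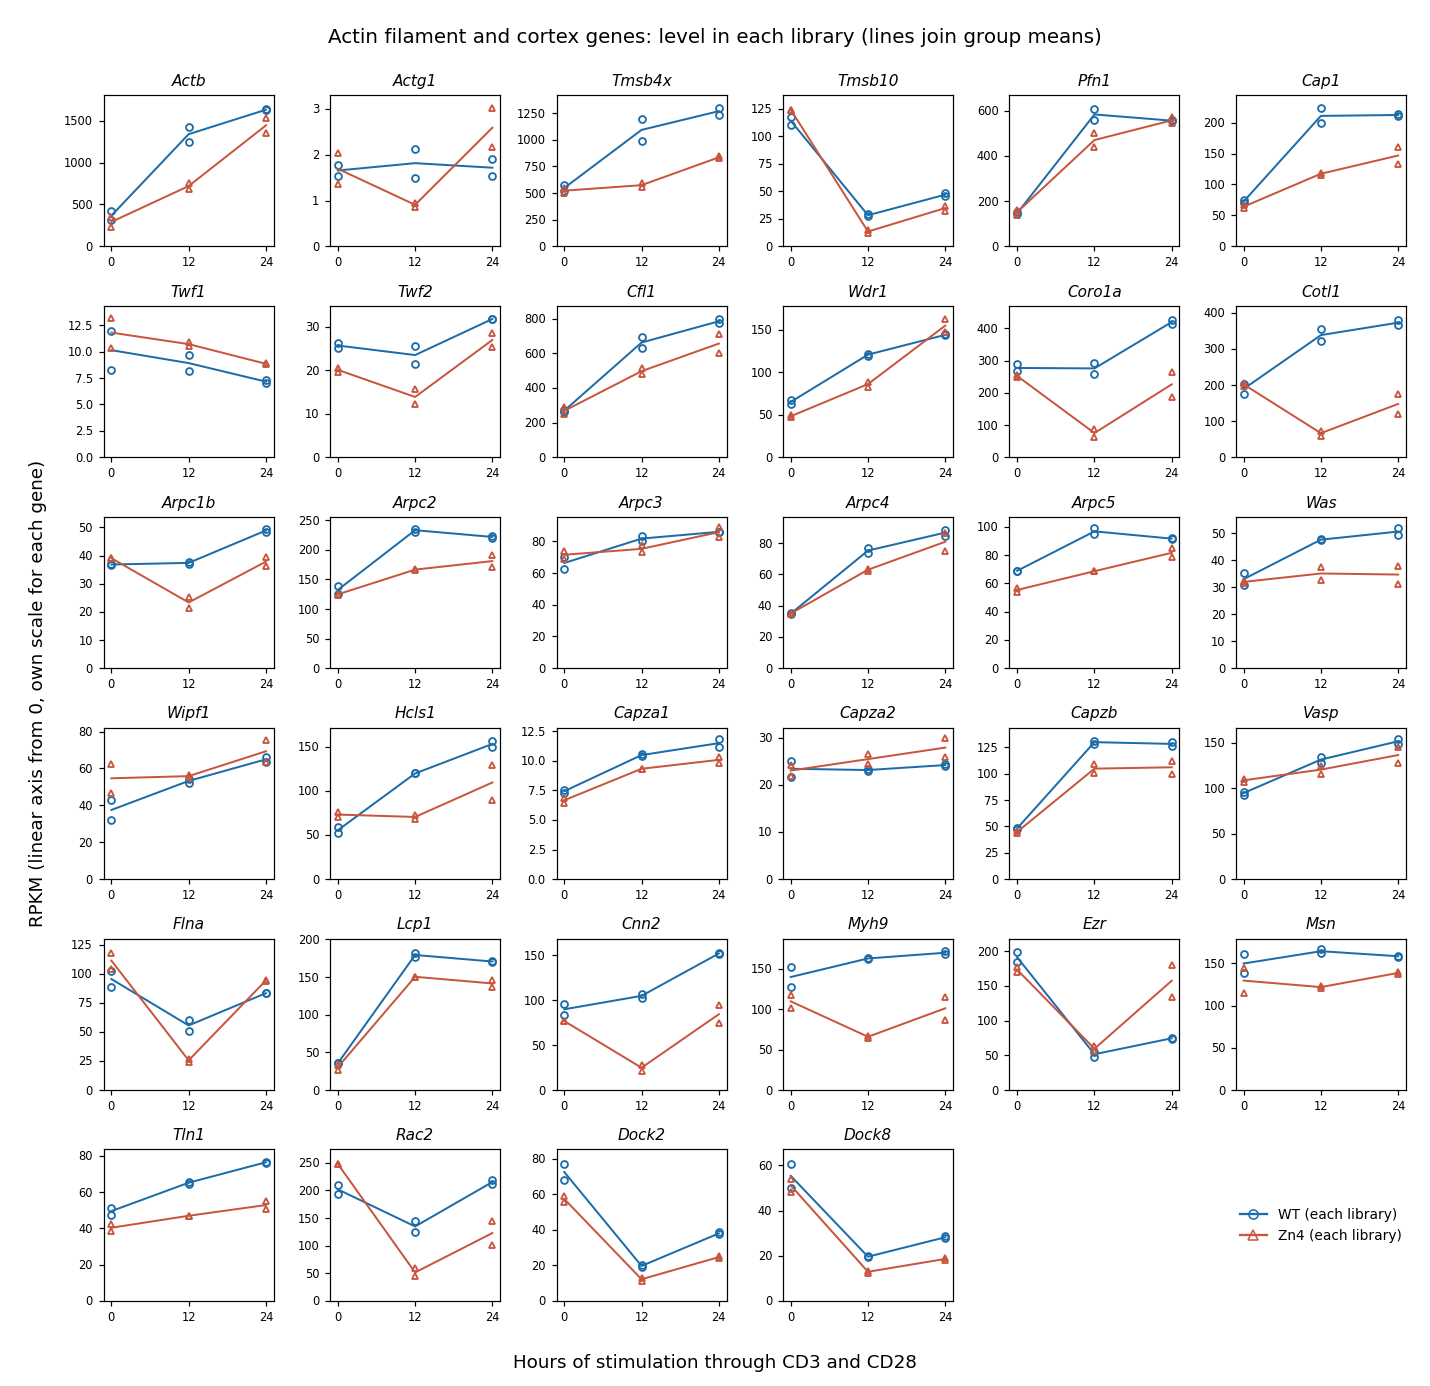
Level of each of the 34 genes in each library (y axes, RPKM, linear from 0, with a scale of its own per gene) against hours of stimulation (x axes). Circles are WT libraries and triangles Zn4 libraries, and lines join group means. Coro1a, Cotl1, Cnn2 and Rac2 dipped at 12 h in Zn4, while Lcp1 and Pfn1 climbed in both genotypes.

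After 12 h of stimulation more of these genes rose than fell in WT, by a margin that depended on the scaling, as given below. Those that fell were Tmsb10, Ezr, Flna, Rac2, Dock2 and Dock8. Differences are on the scale of log2(RPKM + 1), each with the standard error of the limma model, and a gene is called when its adjusted p is under 0.05. At 12 h against 0 h in WT, 19 of the 34 genes rose and 6 fell, where 43.1% and 27% of all genes did. The median change of the 34 was 0.42, against 0.20 for all genes. At 24 h against 0 h in WT, 22 rose (48.3% of all genes) and 5 fell (25.6%), with a median of 0.60 against 0.31. From 12 h to 24 h, 11 rose and none fell, where 17% and 6.94% of all genes did. No member had an unadjusted limma p under 0.05 for a fall, and limma-voom on whole reads also called 0. These 3 comparisons share libraries and are not independent of each other. Of the calls against 0 h, 23 of 25 at 12 h and 25 of 27 at 24 h held without any single library. Wipf1 and Rac2, given with their roles below, were the exceptions at 12 h, and were also those whose 12 h calls ended with the Y-linked level as a covariate (adjusted p = 0.0692 and 0.0918). At 24 h they were Twf1, which fell by 0.43 on the log2 scale (without WT 0 h replicate 1, either WT 24 h library or either Zn4 12 h library, adjusted p = 0.0501 to 0.277), and Coro1a (without WT 0 h replicate 1 or WT 24 h replicate 1, adjusted p = 0.0531 and 0.0508).
The shift of all genes after stimulation depends on the scaling. With median-ratio scaling the median of all genes at 12 h was -0.02 in place of 0.20, 49.1% in place of 61.5% of called genes were higher, and 13 members rose while 10 fell. Of the 12726 genes tested, 4364 rose and 4528 fell with it. At 24 h against 0 h the same scaling gave a median of all genes of -0.0022 in place of 0.31, a higher share of 50.4% in place of 65.4%, and 16 members higher with 8 lower. Of all genes tested, 4708 were then higher and 4633 lower. From 12 h to 24 h the higher share was 54.4% with that scaling and 71.1% without it, with 8 members higher and 1734 of all genes tested.
Of the 11 rises from 12 h to 24 h, those of Tmsb10, Flna and Dock2 held without any single library. The other 8 (Twf2, Wdr1, Coro1a, Arpc1b, Cnn2, Ezr, Rac2, Dock8) each lost their call without at least 2 of the 4 WT libraries at 12 h and 24 h, each of which ended some of these calls, and Wdr1 also without any Zn4 library of 0 h or 12 h (adjusted p = 0.051 to 0.236 over all of these). With the Y-linked level as a covariate, 4 rose.

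In stimulated Zn4 cells some of the actin genes rose and others fell. At 12 h against 0 h in Zn4, 12 genes rose and 13 fell, where 43.5% and 29.6% of all genes did, with a median of 0.059 against 0.19 for all genes. Neither count is read as particular to these genes. The median changed sign with the scaling, to -0.22 with median-ratio scaling and -0.32 with quantile normalization, where 8 and 9 genes rose and 15 and 17 fell. Of all called genes, 49.1% were higher with median-ratio scaling, against 59.5% with the deposited scaling. Of the 12726 genes tested, 4532 rose and 4704 fell with median-ratio scaling, and 4833 rose and 4401 fell with quantile normalization. From 12 h to 24 h in Zn4, 21 genes rose and none fell, where 22.6% and 11% of all genes did, with a median of 0.45 against 0.054, and no member had an unadjusted limma p under 0.05 for a fall (limma-voom also called 0). Here the higher share of all called genes was 67.3%, and 45.8% with quantile normalization, under which 22 members rose and none fell. Of all genes tested, 2007 rose and 2379 fell under it. With the level of the Y-linked genes as a covariate, 8 of the 34 rose from 12 h to 24 h. That level was high in both Zn4 12 h libraries and absent from both of 24 h, so this fit can hardly separate it from time. The calls of Cap1, Cfl1, Arpc4, Arpc5, Hcls1 and Myh9 ended without Zn4 12 h replicate 1, and those of Cap1, Cfl1 and Arpc5 also without Zn4 24 h replicate 2, those of Cap1 and Arpc5 without Zn4 12 h replicate 2, and that of Cap1 without either WT 24 h library (adjusted p = 0.0596 to 0.219).
At 24 h against 0 h in Zn4, 18 rose and 5 fell, where 48.7% and 26% of all genes did, with medians of 0.33 and 0.31. With median-ratio scaling these became 9 and 13, and the median of the members -0.056, with 50.4% in place of 65.1% of called genes higher. Of the 12726 genes tested, 4767 rose and 4682 fell with that scaling. The calls of Twf2, Cotl1, Arpc3 and Capza2 at 24 h ended without 1 of the 4 Zn4 libraries compared, each of which ended some of them, and that of Capza2 also without any WT library of 12 h or 24 h (adjusted p = 0.0533 to 0.218). Of the 25 calls at 12 h, those of Actg1, Twf2, Arpc5 and Tln1 ended with the Y-linked level as a covariate (adjusted p = 0.103 to 0.597), and Actg1 and Tln1 also lost theirs without 1 library. Actg1 did so without Zn4 0 h replicate 2 or either Zn4 12 h library (adjusted p = 0.07 to 0.198), and Tln1 without Zn4 0 h replicate 1, either Zn4 12 h library or either WT 24 h library (0.0552 to 0.185).

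Between genotypes, the fewest of these genes were called before stimulation and the most at 12 h. At 0 h, none of the 34 genes was higher in Zn4 and 2 were lower, Wdr1 and Arpc5, where 3.76% and 1.96% of all genes were. Wipf1, Hcls1 and Vasp had an unadjusted limma p under 0.05 for a higher level, 3 genes in all, and limma-voom called 0 higher. Neither call held without each library. That of Wdr1 (-0.42 ± 0.08, adjusted p = 0.0121) ended without WT 0 h replicate 2 or Zn4 0 h replicate 1 (adjusted p = 0.0552 and 0.0697), and that of Arpc5 (-0.31 ± 0.07, adjusted p = 0.0282) ended without any of 10 of the 12 libraries, all but the Zn4 24 h pair (0.0512 to 0.121). Both Zn4 libraries lay below both WT libraries in 13 of the 34 (20.8% of all genes) and above them in 7 (19.0%). Over the alternative settings 0 to 5 were called lower and 0 to 1 higher, the 5 when same-numbered libraries were blocked within each time. In each genotype the replicates differed most at 0 h (SD of the log2 difference 0.35 in WT and 0.32 in Zn4). Few calls at 0 h therefore do not show that the genotypes were alike.
At 12 h, 23 of the 34 genes were lower in Zn4 and none was higher, where 8.28% and 4.85% of all genes were. For higher levels, 0 genes had an unadjusted limma p under 0.05 and limma-voom called 0. The median difference of the 34 was -0.49, against -0.011 for all genes. In 30 of the 34, both Zn4 libraries lay below both WT libraries, as they did in 33.5% of all genes, and in the other 4 (Twf1, Wipf1, Capza2, Ezr) they lay above, as in 29.7%. Across every alternative setting 16 to 26 of the 34 were called lower and none higher. The count was 16 without WT 12 h replicate 2 or Zn4 12 h replicate 1, and 18 with the Y-linked level as a covariate, which ended the calls of Actb, Cfl1, Was, Capzb and Msn. Within replicate 1, where the cells of both genotypes had Y-linked RNA, the median difference of the 34 was -0.522, against -0.015 for all genes. The signs within this pair add no test, since they were fixed in each of the 34 genes by libraries that did not overlap. The libraries of 1 genotype at 12 h, which differ in Y-linked RNA and Xist, also differed in these genes. In WT, replicate 1 minus replicate 2 was negative in 23 of 34, with a median of -0.026 and a range of -0.323 (Actg1) to 0.213 (Twf1). In Zn4 it was negative in 29 of 34, with a median of -0.099 and a range of -0.443 (Coro1a) to 0.112 (Capza2), and it was -0.40 for Rac2 and -0.39 for Cnn2. The part of the Y-linked and Xist difference in the result was not tested beyond these values. The summed CD8 T cell markers, at 1127 to 1210 RPKM in WT and 794 to 814 in Zn4 at 12 h, moved in the same direction, and their part in the result was not tested.
At 24 h, 16 genes were lower in Zn4 and only Ezr was higher, where 9.96% and 9.4% of all genes were, with a median of -0.27 against -0.019. Both Zn4 libraries lay below both WT libraries in 24 of the 34 (36.3% of all genes) and above them in 6 (32.4%). Without WT 24 h replicate 1, WT 24 h replicate 2 or Zn4 24 h replicate 1, 8, 10 and 9 genes were called lower. Cotl1, Coro1a, Cnn2, Myh9, Tmsb4x, Tln1, Dock2 and Dock8 were called lower without any single library, and Ezr higher.

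**Figure D3:**
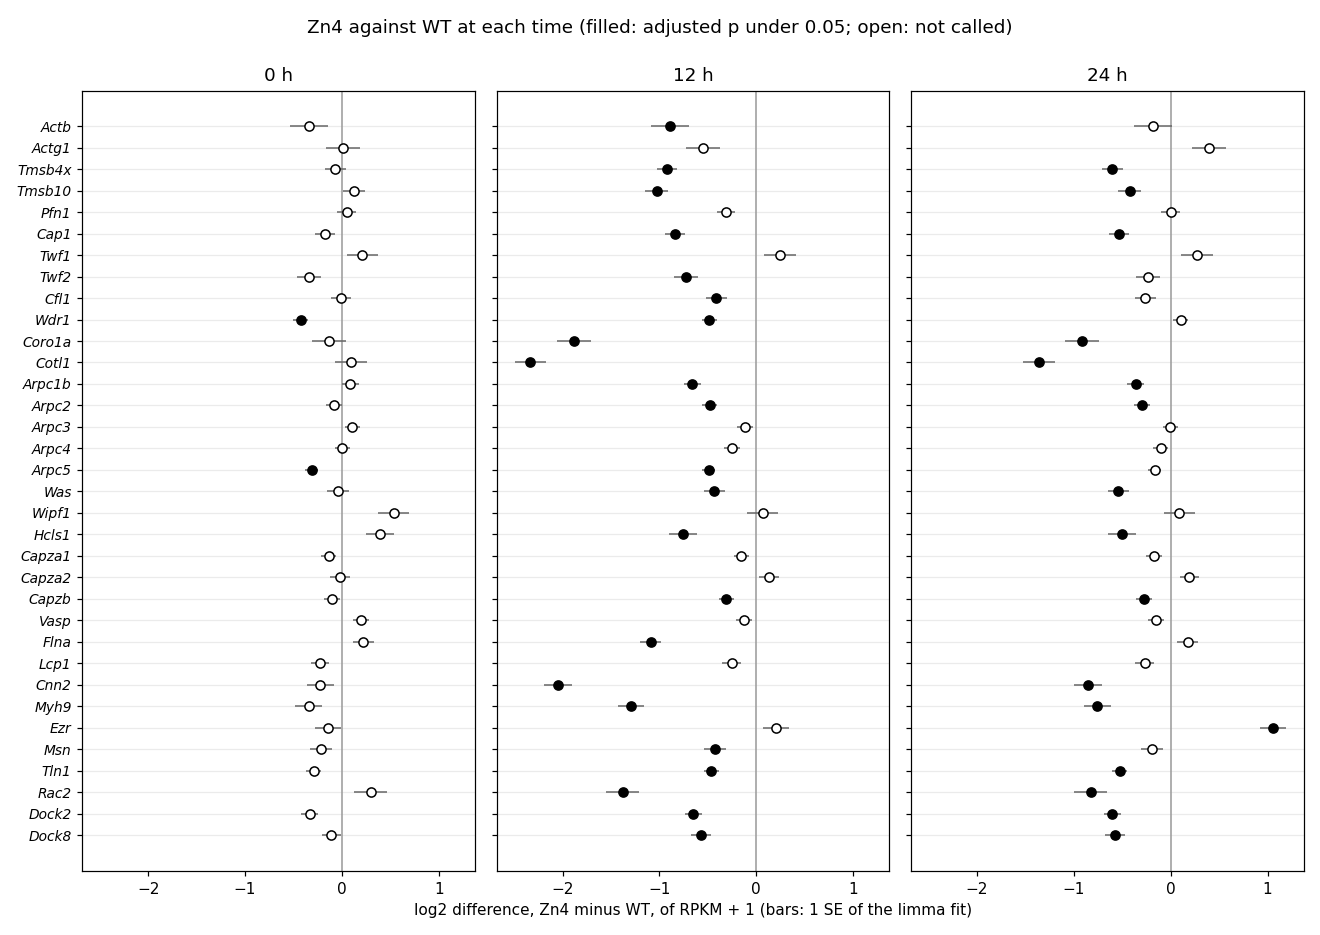
Difference between genotypes (x axes, log2 of RPKM + 1, Zn4 minus WT) for each of the 34 genes (rows) at 0 h, 12 h and 24 h (panels). Points are estimates of the limma model from 2 libraries a group, bars are 1 standard error, and filled points have an adjusted p under 0.05. At 12 h, 23 points are filled and all lie left of 0, down to -2.33 for Cotl1, and at 24 h the Ezr point is filled at 1.054.

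Of the actins, Actb carried nearly all of the counted reads. Its level was 309 and 423 RPKM in WT at 0 h, 1249 and 1430 at 12 h, and 1627 and 1637 at 24 h. The Zn4 libraries gave 234 and 349 RPKM at 0 h, 684 and 756 at 12 h, and 1351 and 1538 at 24 h. It rose in both genotypes, by 1.88 ± 0.20 in WT and 1.33 ± 0.20 in Zn4 at 12 h (adjusted p = 1.75e-05 and 0.000175), and by 2.17 ± 0.20 and 2.33 ± 0.20 at 24 h. At 12 h it was lower in Zn4 by 0.89 on the log2 scale (-0.89 ± 0.20, adjusted p = 0.0159), a call that ended without WT 12 h replicate 2 (adjusted p = 0.122), Zn4 12 h replicate 1 (0.119) or Zn4 12 h replicate 2 (0.0528). At 24 h the genotypes lay within 0.18 ± 0.20 of each other (-0.18, adjusted p = 0.58). The 12 h rise itself was not shown to differ between genotypes (difference -0.55 ± 0.28, adjusted p = 0.333).
Actg1, the gene of gamma-actin, was listed at 0.856 to 3.01 RPKM, which rests on 64 to 205 reads a library, against 16415 to 127948 for Actb. In Zn4, Actg1 was called lower at 12 h against 0 h (-0.49, adjusted p = 0.0293) and higher from 12 h to 24 h (0.90). Both calls ended with the Y-linked level as a covariate (adjusted p = 0.597 and 0.262). Of its 50-base windows, 37.4% also occur in transcripts of other genes, 12 of them pseudogenes, so its value is uncertain and may depend on how shared reads were counted. Whether this sharing accounts for the low level of Actg1 was not tested. Capza1 shares more of its windows (61.4%), and its value is uncertain in the same way. Smaller shares were found for Tmsb10 (27.0%), Twf1 (11.1%), Arpc4 (10%), Actb (9.12%), Arpc1b (7.38%) and Cfl1 (7.25%).

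Of the 6 genes that handle actin monomers, 3 rose and 1 fell in WT at 12 h, where 43.1% and 27% of all genes did. In Zn4, 2 rose and 2 fell at 12 h, where 43.5% and 29.6% of all genes did. Pfn1, which encodes profilin, the protein that loads monomers onto growing ends, was at 141 and 151 RPKM in WT at 0 h and at 557 and 608 at 12 h. In Zn4 it was at 141 and 162 RPKM at 0 h and at 440 and 499 at 12 h. Pfn1 rose by 1.99 ± 0.10 in WT and 1.63 ± 0.10 in Zn4, and the genotypes were not called different at any time. Cap1, whose product recharges monomers released by cofilin, went from 70.5 and 74.3 RPKM to 199 and 223 in WT, and from 61.5 and 66.6 to 119 and 115 in Zn4. Cap1 rose in both genotypes but was lower in Zn4 at 12 h (-0.84 ± 0.10, adjusted p = 0.000805). It was also lower at 24 h (-0.54 ± 0.10, adjusted p = 0.00592), a call that ended without WT 24 h replicate 1 (0.0519).
Tmsb4x, already the top gene of the set at rest, was at 579 and 517 RPKM in WT at 0 h, 991 and 1195 at 12 h, and 1237 and 1302 at 24 h. The Zn4 levels were 499 and 546 RPKM at 0 h, 554 and 594 at 12 h, and 846 and 825 at 24 h. The WT rise at 12 h was 0.99 ± 0.11 (adjusted p = 2.33e-05), whereas the Zn4 change was 0.14 ± 0.11 (adjusted p = 0.275), and the 12 h and 24 h libraries of the genotypes did not overlap. Its difference between genotypes was -0.92 ± 0.11 at 12 h and -0.60 ± 0.11 at 24 h (adjusted p = 0.000637 and 0.00449).
Tmsb10, the gene of the related thymosin beta-10, moved the other way. It fell in WT from 118 and 110 RPKM to 28.9 and 27.5 at 12 h, and stood at 45.3 and 48.6 at 24 h. In Zn4 it fell from 124 in each library to 11.7 and 15.1 RPKM, and stood at 32.5 and 37.0 at 24 h. The fall at 12 h was -1.98 ± 0.11 in WT and -3.13 ± 0.11 in Zn4, the steepest fall among the 34 in each genotype, and both genotypes rose again from 12 h to 24 h (0.71 ± 0.11 and 1.32 ± 0.11, adjusted p = 0.00213 and 4.06e-05). Tmsb10 was lower in Zn4 at 12 h (-1.03 ± 0.11, adjusted p = 0.000501). At 24 h it was also called lower (-0.42 ± 0.11, adjusted p = 0.0302), which ended without WT 24 h replicate 1 or 2 or Zn4 24 h replicate 1 (0.0978 to 0.192).
The twinfilins, which bind monomers and capping protein, were among the less abundant members, Twf1 at 7.01 to 13.2 RPKM and Twf2 at 12.1 to 31.9. Twf2 was lower in Zn4 at 12 h (-0.73 ± 0.12, adjusted p = 0.00465), with 12.1 and 15.6 RPKM against 21.4 and 25.6 in WT, while Twf1 was not called different between genotypes at any time.

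Filament turnover held the gene with the widest gap between genotypes at 12 h, Cotl1. All 4 of its genes were lower in Zn4 at 12 h, where 8.28% of all genes were. Cotl1 encodes coactosin-like protein, which binds filaments and competes with cofilin. Its level in WT was 204 and 175 RPKM at 0 h, 321 and 356 at 12 h, and 380 and 366 at 24 h. The Zn4 libraries gave 199 and 205 RPKM at 0 h, 60.2 and 73.2 at 12 h, and 121 and 175 at 24 h. Resting cells of the genotypes overlapped, and after stimulation the highest Zn4 library was below the lowest WT library. Cotl1 rose by 0.84 ± 0.16 in WT and fell by 1.59 on the log2 scale in Zn4 at 12 h (adjusted p = 0.00128 and 1.45e-05). The difference between genotypes was -2.33 ± 0.16 at 12 h and -1.35 ± 0.16 at 24 h (adjusted p = 5.24e-05 and 0.000596), so that at 12 h the Zn4 level was 0.199 times that of WT.
Coro1a, the gene of coronin 1A, which is abundant in leukocytes and needed for naive T cell survival, was at 266 and 288 RPKM in WT at 0 h, 259 and 292 at 12 h, and 425 and 414 at 24 h. Zn4 libraries held 249 and 256 RPKM at 0 h, 63.4 and 86.6 at 12 h, and 186 and 266 at 24 h. Coro1a did not change in WT by the test at 12 h (-0.01 ± 0.17) and fell in Zn4 (-1.75 ± 0.17, adjusted p = 1.13e-05). Among all genes by level it ranked 94 in WT and 716 in Zn4 at 12 h. The genotype difference was -1.88 ± 0.17 at 12 h and -0.91 ± 0.17 at 24 h (adjusted p = 0.000205 and 0.00631).
Cfl1, which encodes cofilin, and Wdr1, whose product helps cofilin cut filaments, rose in both genotypes. Cfl1 went from 275 and 263 RPKM at 0 h to 632 and 691 at 12 h and 797 and 772 at 24 h in WT, and from 248 and 288 to 479 and 513 and then 603 and 708 in Zn4. Its lower call at 12 h (-0.41 ± 0.11, adjusted p = 0.0321) ended without any library of WT 12 h, Zn4 12 h or WT 24 h (0.0625 to 0.206). Wdr1 was lower in Zn4 at 12 h (-0.48 ± 0.08, adjusted p = 0.00348), with 83.2 and 89.2 RPKM against 120 and 122. It was already at 47.3 and 49.3 RPKM in Zn4 against 62.5 and 67.8 in WT at 0 h (-0.42). Its 12 h response was not called different between genotypes. At 24 h it was at 148 and 163 RPKM in Zn4 and at 145 and 144 in WT.

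Among the subunits of the Arp2/3 complex, 4 of 5 rose in WT and 3 of 5 in Zn4 at 12 h, where 43.1% and 43.5% of all genes did. These counts depended on the scaling. With median-ratio scaling or quantile normalization the rises of Arpc3 in WT and of Arpc2 and Arpc5 in Zn4 were not called, Arpc3 turned negative in WT under both, and Arpc5 turned negative in Zn4 with quantile normalization. The rise of Arpc5 in WT was not called with quantile normalization, and both Arpc1b in WT and Arpc3 in Zn4 were called lower with either. Arpc4 had the largest rise of the 5, from 35.3 and 34.4 RPKM to 76.8 and 73.7 in WT (1.09 ± 0.08), and from 35.5 and 34.5 to 62.4 and 63.7 in Zn4 (0.83 ± 0.08). Arpc2 went from 139 and 126 RPKM to 231 and 236 in WT, and from 126 and 123 to 166 and 168 in Zn4. Arpc1b did otherwise. It was at 37.1 and 36.6 RPKM in WT at 0 h and at 37.2 and 37.6 at 12 h, and in Zn4 it fell from 39.2 and 39.0 to 21.4 and 25.3 (-0.72 ± 0.09, adjusted p = 4.21e-05).
Arpc1b, Arpc2 and Arpc5 were lower in Zn4 at 12 h, by -0.66 ± 0.09, -0.48 ± 0.08 and -0.49 ± 0.07 (adjusted p = 0.00118, 0.00384 and 0.0016). Arpc3 and Arpc4 were not called (-0.12 ± 0.08 and -0.25 ± 0.08, adjusted p = 0.417 and 0.0735). The 5 subunits thus did not all pass the test. Arpc3 changed least, at 62.8 to 88.9 RPKM over all libraries, and its WT rise at 12 h (0.30 ± 0.08) turned to -0.003754 with median-ratio scaling and -0.10 with quantile normalization. At 24 h the lower calls of Arpc1b and Arpc2 (-0.36 ± 0.09 and -0.29 ± 0.08, adjusted p = 0.0182 and 0.0293) each ended without WT 24 h replicate 1, WT 24 h replicate 2 or Zn4 24 h replicate 1 (0.098 to 0.177).

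At 12 h all 3 genes that switch the complex on rose in WT (43.1% of all genes), and none changed by the test in Zn4. The WT rises of Was and Wipf1 were not called with median-ratio scaling or quantile normalization, and Hcls1 was called lower in Zn4 with quantile normalization. Hcls1 encodes HS1, the leukocyte relative of cortactin that stabilizes branches. It was at 58.8 and 51.9 RPKM in WT at 0 h, at 120 in each library at 12 h, and at 157 and 150 at 24 h. Zn4 levels were 75.7 and 70.4 RPKM at 0 h, 68.1 and 72.6 at 12 h, and 89.7 and 129 at 24 h. Hcls1 rose by 1.10 ± 0.15 in WT at 12 h (adjusted p = 8.92e-05), against -0.05 ± 0.15 in Zn4 (adjusted p = 0.75). Its difference between genotypes at 12 h (-0.76 ± 0.15, adjusted p = 0.00827) ended without WT 12 h replicate 2 (0.0572) or Zn4 12 h replicate 1 (0.0713). At 24 h its lower call (-0.50 ± 0.15, adjusted p = 0.0385) ended without any library of WT 12 h, Zn4 12 h or WT 24 h, or Zn4 24 h replicate 1 (0.058 to 0.192).
Was, the gene of the Wiskott-Aldrich syndrome protein, which activates the complex downstream of Cdc42, went from 35.2 and 30.7 RPKM to 47.5 and 47.7 in WT and from 31.7 and 32.3 to 32.6 and 37.5 in Zn4. It was lower in Zn4 at 12 h (-0.43 ± 0.11, adjusted p = 0.0302) and at 24 h (-0.54 ± 0.11, adjusted p = 0.00846). The former call ended without either WT 12 h library, either WT 24 h library or Zn4 12 h replicate 1 (0.0563 to 0.227), and the latter without WT 24 h replicate 1 or Zn4 24 h replicate 1 (0.0738 and 0.065). Wipf1, whose product WIP shields the Wiskott-Aldrich syndrome protein from degradation, was not called different between genotypes. Its WT rise at 12 h (0.51 ± 0.16, adjusted p = 0.0171) ended without WT 0 h replicate 1 or either WT 12 h library (0.0523 to 0.131).

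Genes acting at the barbed end differed little between genotypes. Capzb, the beta subunit of capping protein, rose from 48.6 and 47.6 RPKM to 129 and 131 in WT at 12 h and from 43.7 and 45.9 to 100 and 109 in Zn4. The alpha subunits moved less, with Capza1 at 6.45 to 11.8 RPKM and Capza2 at 21.8 to 29.9 over all libraries. Capza1 rose in both genotypes at 12 h (0.45 ± 0.08 and 0.43 ± 0.08), and Capza2 was not called at 12 h in either. The WT rises of Capza1 and Vasp at 12 h were not called with median-ratio scaling or quantile normalization, nor that of Capza1 in Zn4 with median-ratio scaling. Capza2 was called lower in WT with either, and Vasp lower in Zn4 with quantile normalization. Vasp, whose product protects growing ends from capping, was at 93.0 and 96.1 RPKM in WT at 0 h and at 128 and 135 at 12 h, and in Zn4 at 107 and 110, then 116 and 125. Of the 4, only Capzb was called between genotypes, at 12 h (-0.31 ± 0.08, adjusted p = 0.0311) and at 24 h (-0.27 ± 0.08, adjusted p = 0.0384). At 12 h that call ended without any library of WT 12 h, Zn4 12 h or WT 24 h (0.0574 to 0.228). At 24 h it ended without any library of these 3 groups or Zn4 24 h replicate 1 (0.0507 to 0.217).

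The genes for crosslinking and contraction went in different directions from each other. Lcp1 encodes L-plastin, the bundling protein of leukocytes. It rose from 35.6 and 35.3 RPKM to 182 and 177 at 12 h in WT and from 26.9 and 33.7 to 150 in each library in Zn4. These changes of 2.30 ± 0.10 and 2.28 ± 0.10 were the largest rises among the 34 in each genotype, and Lcp1 was not called different between genotypes at any time.
Cnn2, the gene of calponin 2, which binds filaments and restrains myosin, was at 95.9 and 83.8 RPKM in WT at 0 h, 102 and 107 at 12 h, and 153 and 151 at 24 h. In Zn4 it was at 76.3 and 77.2 RPKM at 0 h, 21.4 and 28.3 at 12 h, and 74.5 and 94.3 at 24 h. It fell in Zn4 at 12 h (-1.60 ± 0.14, adjusted p = 4.79e-06), with a change of 0.22 ± 0.14 in WT (adjusted p = 0.185). In WT it rose by 24 h against 0 h (0.75, adjusted p = 0.000858). The genotype difference was -2.05 ± 0.14 at 12 h and -0.85 ± 0.14 at 24 h (adjusted p = 4.61e-05 and 0.00318), and no library of a stimulated group overlapped with the other genotype at the same time.
Flna, which encodes filamin A, a crosslinker that also binds integrins, dipped at 12 h in both genotypes. In WT it was at 88.4 and 103 RPKM, then 50.5 and 60.6, then 83.4 and 83.2. Zn4 levels were 104 and 118 RPKM, then 24.4 and 26.6, then 94.7 and 93.9. The fall was -0.77 ± 0.11 in WT and -2.08 ± 0.11 in Zn4, and Flna was lower in Zn4 at 12 h (-1.09 ± 0.11, adjusted p = 0.000301) but not by the test at 24 h (0.18 ± 0.11, adjusted p = 0.303).
Myh9, the heavy chain of the main non-muscle myosin II of T cells, was at 127 and 153 RPKM in WT at 0 h, at 163 in each library at 12 h and at 171 and 168 at 24 h. In Zn4 it was at 101 and 118 RPKM, then 64.4 and 67.3, then 87.1 and 115. It fell in Zn4 at 12 h (-0.72 ± 0.14, adjusted p = 0.000897), where WT changed by 0.22 ± 0.14 (adjusted p = 0.168). Myh9 was lower in Zn4 at 12 h (-1.29 ± 0.14, adjusted p = 0.000371) and at 24 h (-0.76 ± 0.14, adjusted p = 0.00466).

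Of the membrane linkers, Ezr was the exception to the lower levels in Zn4. Ezrin joins filaments to membrane proteins and is closely related to moesin. Its gene was at 198 and 184 RPKM in WT at 0 h, 55.2 and 47.8 at 12 h, and 75.1 and 73.9 at 24 h. The corresponding Zn4 levels were 169 and 177 RPKM at 0 h, 56.2 and 62.7 at 12 h, and 181 and 134 at 24 h. Ezr fell in both genotypes at 12 h (-1.87 ± 0.13 in WT and -1.53 ± 0.13 in Zn4), and from 12 h to 24 h it rose by 1.38 ± 0.13 in Zn4 (adjusted p = 7.41e-05). At 24 h it was higher in Zn4 by 1.054 ± 0.13 (adjusted p = 0.000727), and the Zn4 libraries at 24 h differed more from each other (SD 32.7 RPKM) than those of WT (SD 0.827 RPKM).
Msn, the moesin gene, was at 114 to 167 RPKM over all libraries and was not called with stimulation in either genotype at the deposited scaling. It was called lower against 0 h in Zn4 at 12 h (-0.36 and -0.45) and in WT at 24 h (-0.32 and -0.29) with median-ratio scaling and quantile normalization, in WT at 12 h (-0.30) with the latter alone and in Zn4 at 24 h (-0.29) with the former alone. Its lower call in Zn4 at 12 h (-0.43 ± 0.11, adjusted p = 0.0343) ended without any library of WT 12 h, Zn4 12 h or WT 24 h (0.0643 to 0.149). Tln1 encodes talin, which activates integrins such as LFA-1. It was at 47.6 and 51.4 RPKM in WT at 0 h and 64.6 and 65.7 at 12 h, and at 38.3 and 42.4, then 46.9 and 47.0, in Zn4. Tln1 was lower in Zn4 at 12 h (-0.46 ± 0.08, adjusted p = 0.00436) and at 24 h (-0.53 ± 0.08, adjusted p = 0.00185). Both Zn4 libraries also lay below both WT libraries at 0 h. That difference was not called at the deposited scaling but was with quantile normalization (-0.32, adjusted p = 0.026).

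Rac2, Dock2 and Dock8 fell at 12 h in both genotypes, and at 12 h and 24 h each was lower in Zn4 than in WT. Rac2 is the Rac of blood cells. In WT its gene was at 211 and 193 RPKM at 0 h, 125 and 144 at 12 h, and 219 and 211 at 24 h. In Zn4 it was at 248 and 247 RPKM at 0 h, 44.3 and 58.9 at 12 h, and 101 and 145 at 24 h. At 0 h both Zn4 libraries lay above both WT libraries, without a call (0.30 ± 0.17, adjusted p = 0.425), and after stimulation both lay below at 12 h and at 24 h. Rac2 fell by 2.26 on the log2 scale in Zn4 at 12 h (adjusted p = 1.78e-06). Its WT fall (-0.58 ± 0.17, adjusted p = 0.0128) ended without WT 0 h replicate 1 (0.0612) or WT 12 h replicate 1 (0.0838). Rac2 was lower in Zn4 at 12 h (-1.38 ± 0.17, adjusted p = 0.000925). At 24 h it was lower as well (-0.83 ± 0.17, adjusted p = 0.00937), though not without WT 24 h replicate 1 or 2 or Zn4 24 h replicate 1 (0.0535 to 0.0666).
Dock2 encodes the main Rac activator of lymphocytes. It fell in WT from 67.9 and 77.1 RPKM to 19.1 and 20.3, and in Zn4 from 55.9 and 58.9 to 11.5 and 12.9. At 24 h it was at 37.5 and 38.5 RPKM in WT and at 24.2 and 25.1 in Zn4, a rise from 12 h of 0.91 ± 0.09 and 0.96 ± 0.09. Dock8, the gene of a Cdc42 activator whose loss causes immunodeficiency, followed a similar course. It fell from 50 and 60.9 RPKM to 19.3 and 19.9 in WT and from 48.2 and 54.1 to 12.5 and 13.3 in Zn4.
Dock2 and Dock8 were lower in Zn4 at 12 h (-0.65 ± 0.09 and -0.57 ± 0.10, adjusted p = 0.00137 and 0.00636) and at 24 h (-0.60 ± 0.09 and -0.57 ± 0.10, adjusted p = 0.00161 and 0.00457). The 12 h call of Dock8 ended without WT 12 h replicate 2 (0.0556) or Zn4 12 h replicate 1 (0.0611). For Dock2 both Zn4 libraries already lay below both WT libraries at 0 h. That difference was not called at the deposited scaling but was with quantile normalization (-0.36, adjusted p = 0.033). Neither the 12 h nor the 24 h response of Dock2 or Dock8 was called different between genotypes.

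Whether the response itself differed was tested as the difference between the Zn4 and WT changes from 0 h. At 12 h, the response was more negative in Zn4 for 11 of the 34 genes and more positive for none, where 3.58% and 1.54% of all genes were called. For more positive responses, 0 genes had an unadjusted limma p under 0.05 and limma-voom called 0. The median over the 34 was -0.40, against -0.005 for all genes. The 11 were Cotl1, Cnn2, Coro1a, Rac2, Flna, Tmsb10, Hcls1, Myh9, Tmsb4x, Arpc1b and Cap1. They span all roles except actin, barbed end and membrane linkage. With the Y-linked level as a covariate the calls of Cap1 and Myh9 ended (adjusted p = 0.102 and 0.0773). The calls of Cotl1, Cnn2, Coro1a, Rac2, Flna and Tmsb10 held without any single library. Those of Tmsb4x, Cap1, Arpc1b, Hcls1 and Myh9 each ended without WT 12 h replicate 2 (adjusted p = 0.0509 to 0.132), which left 6 genes called, and all of these but Arpc1b also without Zn4 12 h replicate 1, which left 7. Tmsb4x, Cap1 and Myh9 further ended without Zn4 0 h replicate 2, and Cap1 and Myh9 without WT 0 h replicate 1, Zn4 12 h replicate 2 or either WT 24 h library. Zn4 0 h replicate 1 ended that of Cap1 (0.0541) and WT 12 h replicate 1 that of Myh9 (0.0688).
At 24 h, the response was more negative in Zn4 for Cotl1, Hcls1 and Rac2 and more positive for Ezr and Wdr1, 3 and 2 of 34 where 4.35% and 3.88% of all genes were called. Cotl1 and Ezr kept their calls without any single library, whereas Wdr1, Hcls1 and Rac2 did not. Wdr1 ended without either WT 24 h library or Zn4 0 h replicate 1 (0.0592 to 0.0941), Hcls1 and Rac2 without WT 0 h replicate 2, either WT 24 h library or either Zn4 0 h library, and Rac2 also without Zn4 24 h replicate 1 (0.0579 to 0.111 over these). Whether the change from 12 h to 24 h differed between genotypes was not tested.

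**Figure D4:**
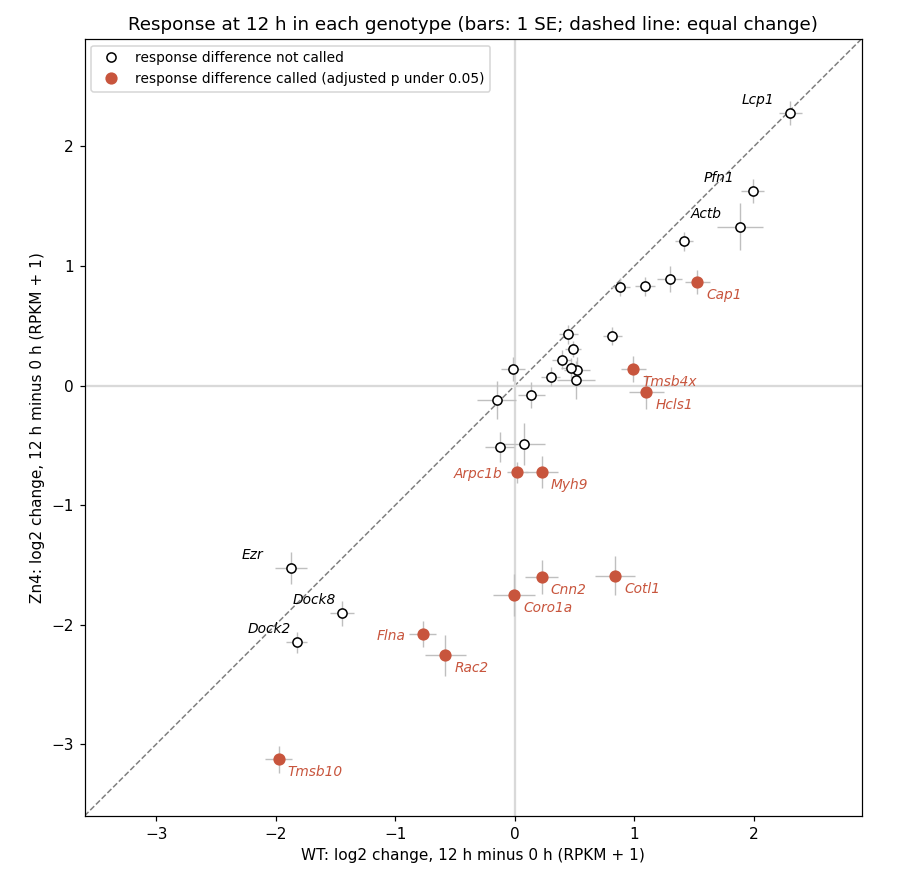
Change from 0 h to 12 h (log2 of RPKM + 1) in WT (x axis) against Zn4 (y axis) for the 34 genes, with bars of 1 standard error and a dashed line of equal change. Filled points are the 11 genes whose response differed between genotypes, and all 11 lie below the line, whereas Lcp1 lies on it within its bars.

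A wider list of 102 other actin genes, of which 93 have a row, gives the wider pathway. With 12 h of stimulation in WT, 33 of the 93 rose and 35 fell, where 43.1% and 27% of all genes did, with a median of -0.07 against 0.20. Capg, the gene of a capping protein regulated by calcium, rose from 3.32 and 2.49 RPKM to 50.2 and 74.95 (4.01 ± 0.24). Ssh2, a phosphatase that activates cofilin, fell from 53.2 and 56.6 RPKM to 6.48 and 5.87. The adaptor gene Fyb fell from 82.0 and 94.1 RPKM to 12.9 and 15.3, and Actn4, the gene of a crosslinking alpha-actinin, rose from 37.4 and 33.1 to 102 and 107. Srf rose from 12.0 and 11.7 RPKM to 33.1 and 34.2 (1.43 ± 0.15), while Mkl1 fell from 24.2 and 30.3 to 12.4 and 13.7 (-1.001 ± 0.12). Among formins, which extend unbranched filaments, Fmnl3 rose by 0.82 ± 0.17 and Inf2 changed by -0.53 ± 0.20 (adjusted p = 0.0387). Of the WAVE complex, Brk1 rose by 1.19 ± 0.09 and Wasf2 changed by -1.36 ± 0.13. Iqgap2, a scaffold gene, changed by -2.40 ± 0.18, and Pak1, the gene of a kinase activated by Rac and Cdc42, by -1.31 ± 0.13. Itgal, which encodes the alpha chain of LFA-1, rose by 1.197 ± 0.12.
Between genotypes, 6 of the 93 were higher and 4 lower in Zn4 at 0 h, 7 higher and 29 lower at 12 h, and 17 higher and 17 lower at 24 h. The background shares are those given above for each time. Evl, the lymphocyte relative of Vasp, was at 47.2 and 49.1 RPKM in WT and 13.1 and 14.4 in Zn4 at 12 h (-1.74 ± 0.16, adjusted p = 0.000171). Itgb1, the integrin beta-1 gene, was higher in Zn4 at each time, with 22.9 and 23.8 RPKM in WT and 60.7 and 60.6 in Zn4 at 12 h (1.34 ± 0.07, adjusted p = 1.45e-05). Capg was lower in Zn4 at 12 h (-1.62 ± 0.24, adjusted p = 0.00199), with 17.8 and 20.8 RPKM.
Cyfip1, of the WAVE complex, was higher in Zn4 at each time. At 0 h it was at 0.311 and 0.211 RPKM in WT and 1.061 and 1.39 in Zn4 (0.82 ± 0.13, adjusted p = 0.0051). At 24 h Cyfip1 was at 0.716 and 0.818 RPKM in WT and 6.24 and 5.07 in Zn4 (1.91 ± 0.13). Myh10, another non-muscle myosin II, was not called at 0 h and was higher in Zn4 at 12 h and 24 h. Its 24 h levels were 0.650 and 0.806 RPKM in WT and 5.23 and 5.57 in Zn4 (1.89 ± 0.14). Rhob was at 2.71 and 2.29 RPKM in WT and 20.03 and 8.77 in Zn4 at 24 h (2.04 ± 0.36, adjusted p = 0.00426), with the Zn4 libraries far apart. Also at 0 h, the Rac activator gene Tiam1 was higher in Zn4 (0.630 and 0.788 RPKM against 2.75 and 2.50) and the myosin gene Myo1f lower (5.15 and 4.61 RPKM against 2.15 and 1.52). Srf did not differ between genotypes by the test at any time, with 33.1 and 34.2 RPKM in WT and 31.1 and 35.7 in Zn4 at 12 h. Mkl1 was lower in Zn4 at 12 h, at 6.89 and 8.07 RPKM against 12.4 and 13.7 in WT (-0.73 ± 0.12, adjusted p = 0.00451), and was not called at 0 h or 24 h.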

How the data were processed

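The deposited table gives RPKM values for 12892 lines and 12885 gene symbols, and the line listed ahead of the other was kept for 7 symbols on 2 lines. Reads were processed with TopHat2 2.0.12 and HTSeq 0.6.1 on mm10/GRCm38, per the submitters' processing notes, and library preparation kept strand and was read from a single end, per the labels' protocols. The annotation and counting rule are not given in the sources used here. The steps of the RPKM values gave whole reads for 12885 genes (100.0%, tolerance 0.02 reads), so that for a 2 kb gene 3 reads make 0.0449 to 0.0618 RPKM. How reads shared between near copies were counted could move the values of such genes.

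The deposited scaling was kept. The 12726 genes that reached 1 RPKM in 2 or more libraries were fitted as log2(RPKM + 1) with limma 3.58.1 (R 4.3.3, empirical Bayes with trend) on all 12 libraries, 1 mean per group, leaving 6 residual degrees of freedom. The pseudocount understates changes of low genes. In each of 11 comparisons p was adjusted over all genes (Benjamini-Hochberg) and called under 0.05. The script was tested on simulated data. Same-numbered replicates did not deviate together throughout (correlations -0.115 to 0.61 over 15 pairs of groups, 3 over 0.1) and were not paired. Alternatives were the pseudocount, filter, scaling, model, libraries, block and Y-linked covariate. The members and lists were chosen with earlier results of these data known, and all 34 members are named, with, of the other actin genes, the called gene of largest rise and of largest fall in each list in WT at 12 h and the 3 largest called differences between genotypes at each time, of which 1 gene is not reported here. Mkl1 between genotypes was added after its values were seen.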

Additional observations from a re-analysis of the deposited data

Results flagged for a closer look

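The results below are those in which the genotypes differed in their response to stimulation by the interaction test of limma (Zn4 change minus WT change, log2 of RPKM + 1, adjusted over all genes). At 12 h against 0 h this difference was -2.43 for Cotl1, -1.83 for Cnn2, -1.74 for Coro1a, -1.68 for Rac2 and -1.31 for Flna. It was -1.15 for Tmsb10, -1.15 for Hcls1, -0.95 for Myh9, -0.85 for Tmsb4x, -0.75 for Arpc1b and -0.66 for Cap1. At 24 h against 0 h it was -1.45 for Cotl1, -1.12 for Rac2 and -0.90 for Hcls1, and it was 1.19 for Ezr and 0.53 for Wdr1. The adjusted p ran from 0.000914 (Cotl1, 12 h) to 0.0313 (Cap1, 12 h). Cotl1, Hcls1 and Rac2 appear at both times, which share the 0 h libraries. Groups of 2 libraries were not examined for outlying samples.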

How the results depend on the processing

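With median-ratio scaling or quantile normalization, which remove most of the shift of all genes against 0 h, fewer members rose against 0 h. From 12 h to 24 h the counts were 8 and 13 in WT and 18 and 22 in Zn4. Among the 12726 genes tested they were 1734 and 1566 in WT and 2318 and 2007 in Zn4. In WT, 12 rose at 12 h with quantile normalization, 10 fell at 12 h and 8 at 24 h with either. Of all genes tested, 4540 rose at 12 h in WT with quantile normalization. With median-ratio scaling and quantile normalization, 4528 and 4336 fell at 12 h and 4633 and 4654 at 24 h. In Zn4 at 24 h against 0 h, 9 rose and 13 fell with median-ratio scaling, and 11 rose and 11 fell with quantile normalization, which also called 4 lower in Zn4 at 0 h. Of all genes tested, 4767 rose and 4682 fell with the former scaling, and 4766 rose and 4718 fell with the latter. Quantile normalization called 332 of all genes lower in Zn4 at 0 h. Median-ratio scaling of the other actin genes, the one alternative run for them, gave 11 higher in Zn4 at 12 h and 7 and 6 lower from 12 h to 24 h in WT and Zn4. Called rises that turned negative were, with median-ratio scaling and then quantile normalization, Arpc3 at WT 12 h (-0.003754 and -0.1033), WT 24 h (-0.02916 and -0.03696) and Zn4 24 h (-0.1319 and -0.1349), Tln1 at Zn4 12 h (-0.05969 and -0.17) and Zn4 24 h (-0.004962 and -0.02591), Capza2 (-0.1158 and -0.1428) and Vasp (-0.06918 and -0.02635) at Zn4 24 h, and, with quantile normalization alone, Tln1 at WT 12 h (-0.03516), Arpc1b at WT 24 h (-0.003021) and Arpc5 at Zn4 12 h (-0.09773), all against 0 h. With the Y-linked level as a covariate, 4 members rose from 12 h to 24 h in WT and 8 in Zn4. Fitted on the libraries compared alone, 17 rose from 12 h to 24 h in WT, 0 were lower in Zn4 at 0 h, and 1 response was more positive in Zn4 at 24 h; the cause was not tested.

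The deviations of same-numbered WT and Zn4 libraries correlated at 0.61 at 0 h, 0.19 at 12 h and 0.043 at 24 h. The numbers were not taken to pair the libraries, by a rule that asked for every correlation to be over 0.1. That rule does not settle the matter at 0 h, where same-numbered libraries did deviate together. The counts that use the 0 h libraries depend on this choice. A replicate block over all groups gave 5 more negative responses in Zn4 at 24 h. A replicate block at each time point gave 1 higher and 5 lower in Zn4 at 0 h, 2 higher at 24 h, and 9 more negative responses at 24 h. With the block the count lower in Zn4 at 12 h was 24 or 26. Leaving out 1 library gave 3 to 13 rises from 12 h to 24 h in WT, 0 to 1 higher and 0 to 2 lower in Zn4 at 0 h, 8 to 17 lower at 24 h, 6 to 12 more negative responses at 12 h, and 1 to 2 more positive and 1 to 10 more negative at 24 h. The other counts of members called stayed within 1.5 times their value in these 12 fits, where the lone library left in a group is assumed to vary like the other groups. Depth did not limit the members except Actg1, at 64 to 205 reads.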
